A study of Mus musculus with 6 samples.

Results

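Retinoid storage and retinoic acid breakdown were followed through 9 genes in mouse liver RNA-seq, chosen by symbol from the 22609 genes in the count files. They are Cyp26a1, Cyp26b1, Lrat, Rbp4, Aldh1a1, Aldh1a2, Rara, Rarb and Crabp2. The set was drawn up after Cyp26b1 had been seen to differ between the genotypes, so differences of these 9 genes between knockout and wild type are given as a description and not as a test. A filter on low counts left 12522 genes, among them 7 of the 9, and Aldh1a2 and Crabp2 did not pass it.

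The libraries came from adult liver of C57BL/6 mice, 3 from knockout mice (labelled IGFBP7_KO) and 3 from wild type mice (WT). The knockout mice are Igfbp-7-/- animals made by Cre-loxP recombination. Igfbp7 encodes a secreted protein that binds insulin-like growth factors, and the study concerns it in liver cancer, although the tissue here is adult liver not labelled as tumour. The sources used here do not name the Cre driver, the sex, the exact age, the feeding state or the hour of collection. Nor do they say whether the 3 libraries of a genotype are 3 animals, so errors and p-values measure library-to-library spread, which may be technical.

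Dietary vitamin A reaches the liver mainly as retinyl esters, which hepatocytes hydrolyse to retinol. Hepatocytes release retinol into blood on retinol binding protein, while stellate cells store most of the vitamin as retinyl esters made by the acyltransferase LRAT. Retinol is oxidised to retinal and then, by retinaldehyde dehydrogenases, to retinoic acid, which acts through nuclear retinoic acid receptors. Enzymes of the CYP26 family oxidise retinoic acid and so end its action. Some genes of the pathway are themselves induced by retinoic acid, with Cyp26a1 and Rarb as textbook cases.

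The promoter sequences of Cyp26a1, Rarb and Cyp26b1 are shown because the first pair are the classical retinoic acid response genes and the last has the largest fold change between genotypes of the 9. The retinoic acid receptor with its RXR partner is known to bind a direct repeat of a hexamer, of the form AGGTCA, its variant AGTTCA, the form GGGTCA or its variant GGTTCA. The windows run from 250 bases before to 50 bases after a RefSeq start site and are written in the direction of transcription, 5′ to 3′. Capitals mark a repeat with a spacing of 5 bases (DR5) found on either strand; in each window it was the only direct repeat among the spacings searched.
Cyp26a1: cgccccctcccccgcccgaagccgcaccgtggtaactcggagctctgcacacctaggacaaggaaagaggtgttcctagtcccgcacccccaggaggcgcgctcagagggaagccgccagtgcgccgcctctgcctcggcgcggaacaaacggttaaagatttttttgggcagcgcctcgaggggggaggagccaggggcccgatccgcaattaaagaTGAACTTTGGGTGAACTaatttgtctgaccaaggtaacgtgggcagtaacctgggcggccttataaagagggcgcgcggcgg
Rarb: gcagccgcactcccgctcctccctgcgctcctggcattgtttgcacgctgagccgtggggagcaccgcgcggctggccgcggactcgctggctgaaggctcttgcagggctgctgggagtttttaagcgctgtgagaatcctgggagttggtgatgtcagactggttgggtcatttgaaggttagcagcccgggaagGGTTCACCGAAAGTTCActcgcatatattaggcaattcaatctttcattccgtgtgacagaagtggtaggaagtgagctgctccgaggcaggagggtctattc
Cyp26b1: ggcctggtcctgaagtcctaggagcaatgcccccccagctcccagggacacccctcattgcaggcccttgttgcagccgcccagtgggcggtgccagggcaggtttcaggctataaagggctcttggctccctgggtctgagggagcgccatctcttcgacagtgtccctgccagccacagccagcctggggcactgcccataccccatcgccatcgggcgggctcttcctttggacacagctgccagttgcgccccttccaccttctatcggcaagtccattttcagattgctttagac
The windows lie in assembly GRCm38.p6 at chr19:37697558-37697857 on the plus strand for Cyp26a1, chr14:16575427-16575726 on the minus strand for Rarb and chr6:84593761-84594060 on the minus strand for Cyp26b1. In Cyp26a1 the DR5 spans positions -32 to -16 from the start and reads as hexamers on the opposite strand. In Rarb it spans -53 to -37 on the coding strand. The Cyp26b1 window held no repeat with a spacing of 1, 2, 4 or 5 bases, which says only that these letters are not in these 300 bases.

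RefSeq windows were found for 8 of the 9 genes, and those of Lrat, Rbp4, Aldh1a1, Aldh1a2 and Rara held no repeat with any of these spacings either. A DR5 occurred in 32 of all 32817 promoter windows, or 0.0975%. Repeats with a spacing of 1 base occurred in 0.222%, of 2 bases in 0.268% and of 4 bases in 0.0823% of windows. The single hexamer AGGTCA, found in 16.3% of all windows and itself part of some repeats, was present in 1 of the 4 Rara windows. AGTTCA, found in 14.0%, was present in the Cyp26a1 and Rarb repeats and in another Rara window. The window of Cyp26b1 had the same G+C content as that of Cyp26a1, at 62.3%, but 9 CpG dinucleotides, where that of Cyp26a1 had 26. Windows of Aldh1a1 were at 43.3% and 47.0% G+C with 3 and 1 CpG, while the median of all windows was 52.7% with 7 CpG.

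Gene counts per library ran from 18912701 to 22419411 in knockout livers and from 16712568 to 21478524 in WT livers. Igfbp7 had 5, 2 and 9 counts in the knockout libraries, against 1438, 1705 and 1055 counts in the WT libraries, in keeping with the labels. WT replicate 1 stood apart in its circadian clock genes. A clock score, the mean log2 CPM of evening-phase minus that of morning-phase genes, was 3.63, 4.33 and 4.05 in knockout replicates 1 to 3, against 0.06, 2.91 and 3.35 in WT replicates 1 to 3. Levels are given as CPM, a unit of gene counts relative to the library total, scaled by edgeR's TMM method. Albumin (Alb), which marks hepatocytes, averaged 77357 ± 10586 CPM in knockout livers and 67200 ± 9985 CPM in WT livers (SD, n = 3 each), and 13 hepatocyte markers summed to 122567 to 149419 CPM in knockout and 118164 to 136088 CPM in WT livers.

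Between the genotypes, Cyp26b1 and Cyp26a1, which serve retinoic acid breakdown, stood higher in the knockout livers. For Cyp26a1 the closest libraries were at 4.64 CPM in knockout and 4.57 CPM in WT livers. Cyp26c1, outside the set and not past the filter, averaged 0.153 CPM in knockout and 0.202 CPM in WT livers, with overlapping groups. The genes of the set for retinol storage, transport, oxidation and reception overlapped. Cyp26b1 was 3.25-fold higher and Cyp26a1 1.71-fold higher in fitted values, of which the second was not past the threshold, and in both genes every knockout library lay above every WT library. Lrat, Rbp4, Rara and Rarb had log2 fold changes from 0.18 to 0.24, and Aldh1a1 stood at -0.05, all with overlapping groups. A gene was called when its adjusted p in edgeR's quasi-likelihood test over all genes was under 0.05. By that rule 1 of the 7 genes, Cyp26b1, was called, where 0.216% of all tested genes were. Groups without overlap and with the knockout higher were seen in 2 of 7, where 10.7% of all tested genes show this, 10.1% show the reverse and 20.7% show either. DESeq2 called 3.64% of all the genes it tested. Since this contrast chose the set, nothing is read from either count.

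**Figure D1:**
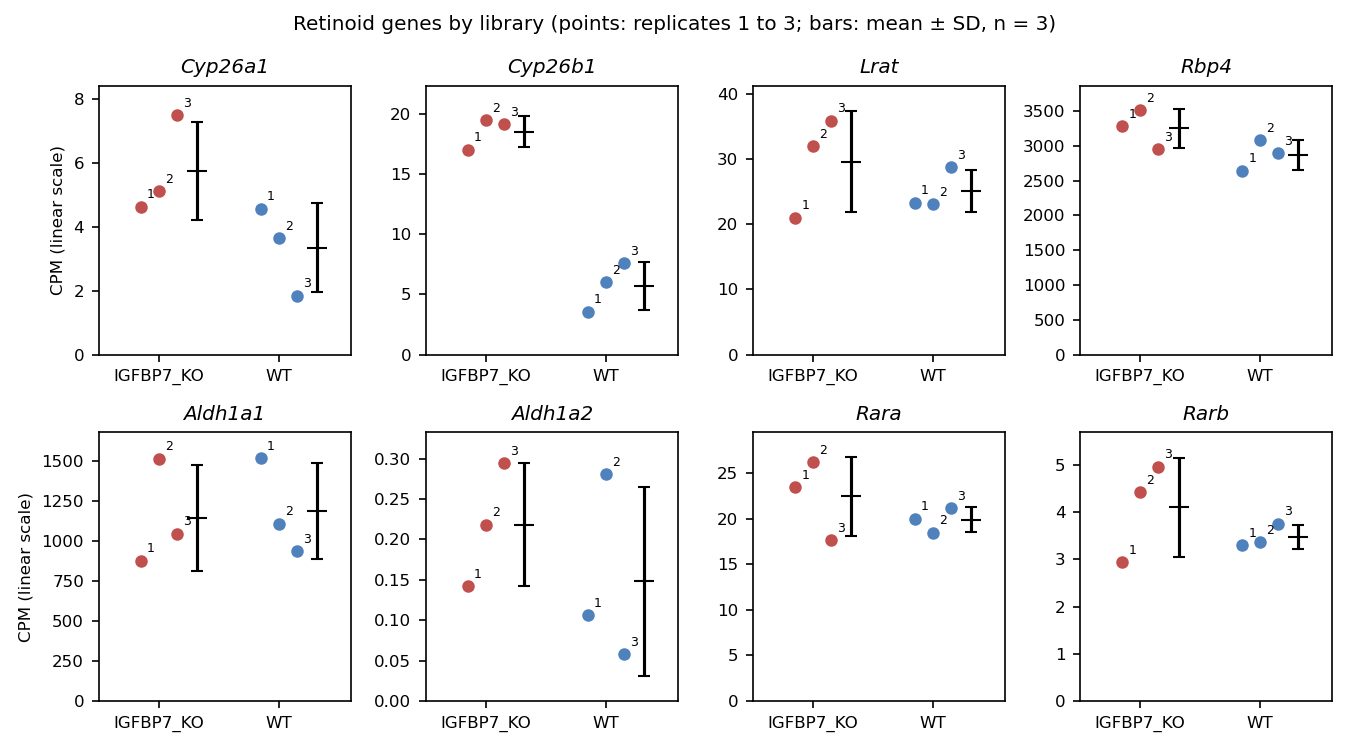
Level of each of the 8 detected genes in CPM (vertical axes, linear, from 0) in the 3 IGFBP7_KO libraries (left) and the 3 WT libraries (right); small numerals are replicate numbers and bars show mean ± SD (n = 3). The knockout points of Cyp26b1, at 17.0 to 19.4 CPM, all lie above its WT points, at 3.56 to 7.56 CPM, while the groups of Lrat, Rbp4, Aldh1a1, Aldh1a2, Rara and Rarb overlap.

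Cyp26b1, a cytochrome P450 that oxidises retinoic acid, had 359, 356 and 389 counts in knockout replicates 1 to 3, against 67, 128 and 131 counts in WT replicates 1 to 3. In CPM these were 17.0, 19.4 and 19.1 in knockout livers and 3.56, 5.99 and 7.56 in WT livers. The knockout libraries were close together, with a coefficient of variation of 7.12%, and the WT libraries were spread more widely, at 35.3%, with WT replicate 1 lowest. The means were 18.5 ± 1.3 CPM in knockout and 5.70 ± 2.01 CPM in WT livers (SD, n = 3 each), which fitted to a log2 difference of 1.70 ± 0.23 (SE). It ranked 16 among the 12522 genes by p, with an adjusted p of 0.0356 (edgeR).

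The call for Cyp26b1 sat near the threshold. It was lost without knockout replicate 1 (edgeR adjusted p = 0.0642), knockout replicate 2 (0.0867), knockout replicate 3 (0.0650) or WT replicate 2 (0.165), and held without WT replicate 1 (0.0404) or WT replicate 3 (0.0275). The log2 fold change over these fits stayed between 1.45 and 1.95.

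Across all 6 libraries the order of Cyp26b1 levels was also the order of the clock scores, from WT replicate 1, lowest in both, to knockout replicate 2, highest in both. With the clock score as a covariate the log2 fold change of Cyp26b1 was 1.18 ± 0.17 (SE) and was not called (edgeR adjusted p = 0.215). Every knockout library had a higher clock score than every WT library, so genotype and clock phase cannot be fully told apart here.

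**Figure D2:**
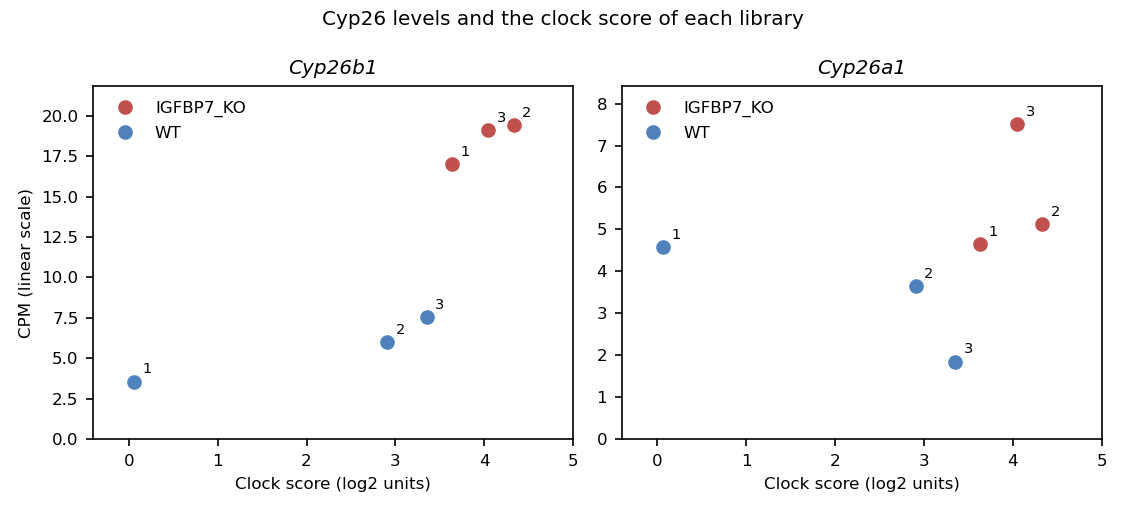
Cyp26b1 (left) and Cyp26a1 (right) levels in CPM (vertical axes, linear, from 0) against the clock score of each library in log2 units (horizontal axes), with IGFBP7_KO and WT libraries coloured and replicate numbers beside the points. Cyp26b1 is lowest in WT replicate 1, whose score of 0.06 is the lowest, whereas Cyp26a1 at the same library stands at 4.57 CPM, the highest of the WT values.

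Cyp26a1, the main inducible retinoic acid hydroxylase of liver, had 98, 94 and 153 counts in knockout replicates 1 to 3, against 86, 78 and 32 counts in WT replicates 1 to 3. These were 4.64, 5.13 and 7.51 CPM in knockout livers and 4.57, 3.65 and 1.85 CPM in WT livers. The groups did not overlap, but knockout replicate 1 and WT replicate 1 differed by little. The log2 fold change was 0.77 ± 0.32 (SE), not called (edgeR adjusted p = 0.293), and it was 0.49 without WT replicate 3 and 0.53 without knockout replicate 3. With the clock score as a covariate it was 1.28 ± 0.41 (SE), again not called.

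The WT libraries ran in opposite orders for the 2 enzymes, with replicate 1 lowest in Cyp26b1 and highest in Cyp26a1. Levels of different genes were compared per length, as CPM per kilobase (kb) of annotated exon. The level of Cyp26b1 over that of Cyp26a1, per kb, was 1.36, 1.40 and 0.942 in knockout replicates 1 to 3 and 0.289, 0.608 and 1.52 in WT replicates 1 to 3, so the groups overlapped and WT replicate 3 had the highest ratio. Their summed level was 5.52, 6.22 and 7.36 CPM per kb in knockout livers and 2.97, 2.96 and 2.34 CPM per kb in WT livers. The sums could not overlap, since in each gene every knockout library already lay above every WT library. Their means were 6.36 ± 0.93 in knockout and 2.76 ± 0.36 in WT livers (SD, n = 3 each), a ratio of 2.31. Cyp26c1, the other member of the family, averaged 0.153 CPM in knockout and 0.202 CPM in WT livers and did not pass the filter.

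**Figure D3:**
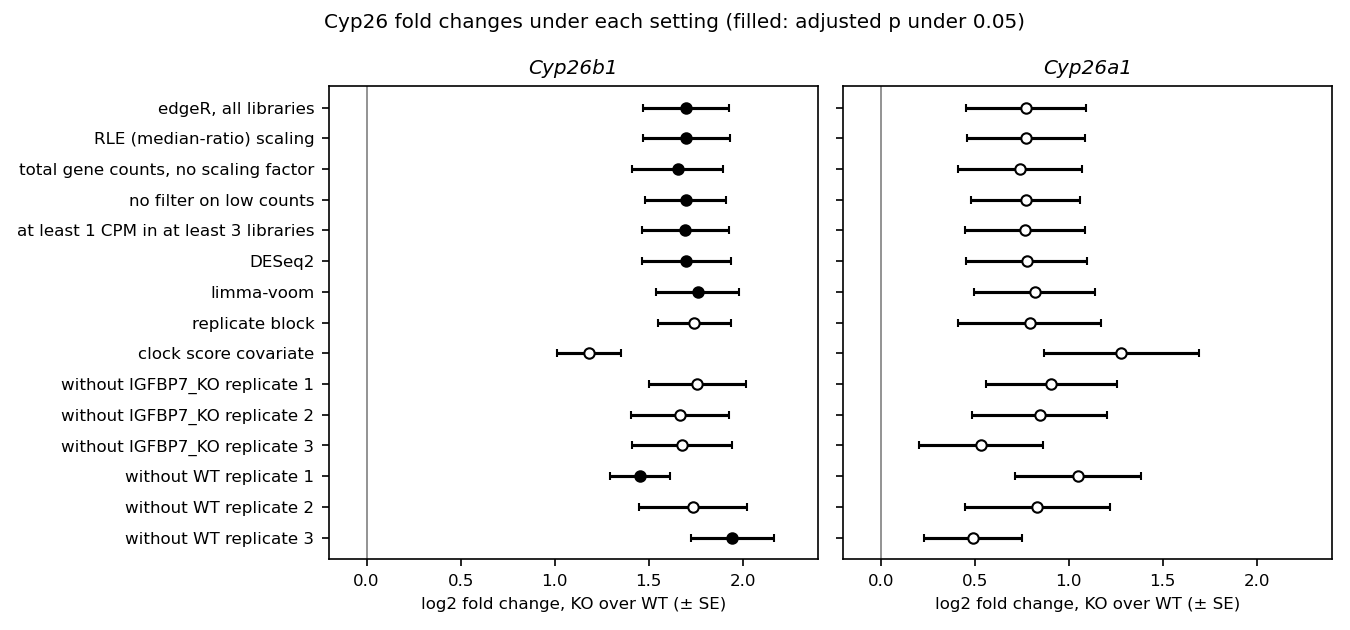
Log2 fold change of Cyp26b1 (left) and Cyp26a1 (right), IGFBP7_KO over WT, with standard errors (horizontal axes) under the edgeR fit to all libraries and each alternative (rows); filled points have an adjusted p under 0.05. All values of both genes lie above 0, from 1.18 to 1.95 for Cyp26b1 and from 0.49 to 1.28 for Cyp26a1, and Cyp26a1 is filled in none of the settings shown.

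Among the storage and transport genes, Rbp4, the plasma carrier of retinol, had the highest level. Its levels were 3283, 3509 and 2952 CPM in knockout replicates 1 to 3 and 2643, 3078 and 2889 CPM in WT replicates 1 to 3. The groups overlapped, with a log2 fold change of 0.18 ± 0.14 (SE). Lrat, which esterifies retinol for storage and marks stellate cells, stood at 21.0, 31.9 and 35.8 CPM in knockout livers and 23.3, 23.0 and 28.7 CPM in WT livers. Knockout replicate 1 had the lowest Lrat level of all 6 libraries and knockout replicate 3 the highest, and the log2 fold change was 0.24 ± 0.19 (SE).

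The summed level of 22 stellate cell markers overlapped as well, at 861 to 971 CPM in knockout and 885 to 1082 CPM in WT livers, with all 22 detected. Its most abundant genes were Tmem56, at 300 CPM in knockout and 310 CPM in WT livers on average, and Dcn, the matrix proteoglycan decorin, at 168 and 181 CPM in the same order. By edgeR 0 of the 22 were called, with 0 higher and 2 lower before adjustment (p under 0.05) and 0 called by DESeq2, and the median log2 fold change was -0.13. In bulk tissue, fewer cells of a type and less RNA per cell cannot be told apart.

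Of the enzymes that make retinoic acid, Aldh1a1 was abundant and Aldh1a2 barely present. Aldh1a1, a retinaldehyde dehydrogenase of hepatocytes, had 878, 1518 and 1048 CPM in knockout replicates 1 to 3 and 1521, 1111 and 938 CPM in WT replicates 1 to 3. The highest library of each group and the lowest of each group were close, and the fitted log2 difference of -0.05 ± 0.24 (SE) changed sign with the library left out. Its near copy Aldh1a7 averaged 182 ± 24 CPM in knockout and 249 ± 47 CPM in WT livers (SD, n = 3 each). Reads that fit both such copies can be left out as not unique or assigned to the wrong gene. Aldh1a2, known in liver from mesothelial and stellate cells, had 3, 4 and 6 counts in knockout and 2, 6 and 1 counts in WT libraries. At this depth no difference in Aldh1a2 was detectable.

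Crabp2, a cytosolic protein that hands retinoic acid to its receptors, had a count of 0 in all 6 libraries, which allows at most 0.140 to 0.173 CPM per library at 3 counts. The relative Crabp1 and the retinol uptake receptor gene Stra6 were also at 0 CPM in every library.

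The receptors differed little. Rara, a nuclear receptor that binds retinoic acid, stood at 23.5, 26.2 and 17.7 CPM in knockout replicates 1 to 3 and 19.99, 18.5 and 21.2 CPM in WT replicates 1 to 3. Knockout replicate 3 was the lowest of the 6 and the other knockout libraries the highest, with a log2 fold change of 0.18 ± 0.15 (SE). Rarb, itself inducible by retinoic acid, had 2.94, 4.42 and 4.96 CPM in knockout and 3.30, 3.37 and 3.75 CPM in WT livers, a log2 fold change of 0.24 ± 0.22 (SE). In GENCODE M21, 34.1% of the annotated Rarb exon length overlaps Top2b on the opposite strand and 4.31% overlaps Gm48162. The strand setting of the counting is not stated, so reads from these stretches cannot be assigned to Rarb with certainty.

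In both genotypes the order of levels per kb began with Rbp4, Aldh1a1, Lrat and Rara. Rbp4 averaged 2418 ± 208 CPM per kb in knockout and 2137 ± 162 in WT livers, and Aldh1a1 233 ± 67 and 241 ± 61 in the same order (SD, n = 3 each). Lrat, at 5.53 and 4.67 CPM per kb, and Rara, at 5.14 and 4.55, were neighbours whose libraries overlapped within each genotype. In knockout livers Cyp26b1, at 3.46 ± 0.25, came next, overlapping with Cyp26a1 at 2.91 ± 0.77 CPM per kb. In WT livers Cyp26a1 came next at 1.69 ± 0.70, overlapping with Cyp26b1 at 1.07 ± 0.38, which in turn overlapped with Rarb. Rarb averaged 0.780 CPM per kb in knockout livers, below every Cyp26b1 and Cyp26a1 value there, and 0.659 CPM per kb in WT livers.

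**Figure D4:**
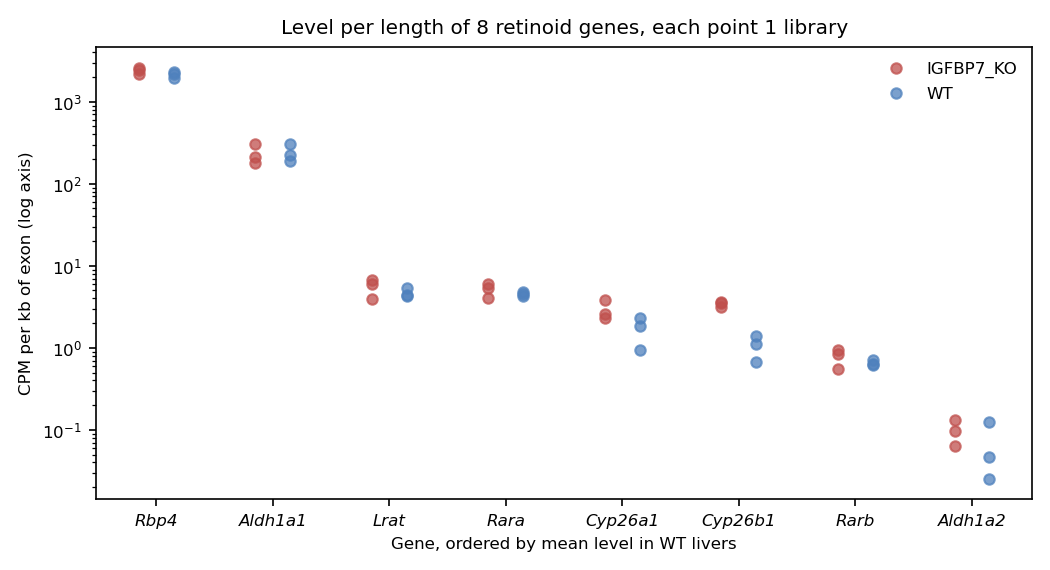
Level per length of the 8 detected genes, in CPM per kb of annotated exon (vertical axis, log scale), with 1 point per library for IGFBP7_KO (left of each pair) and WT. Rbp4, whose lowest library is at 1968 CPM per kb, and Aldh1a1, whose lowest is at 178 CPM per kb, stand far above the rest, and Cyp26b1 is the gene whose knockout and WT points are farthest apart among those passing the filter.

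The likeness of patterns was measured as the root mean square difference of log2 CPM, each gene centred on its mean over the 6 libraries. Among the 7 detected genes that passed the filter, Lrat and Rarb were the most alike, at 0.05, followed by Rbp4 and Rara at 0.14. Cyp26b1 was no closer than 0.83 to any of the others. Among 10862 genes with a mean of at least 1 CPM, the nearest to Cyp26b1 was Por, the electron donor of microsomal P450 enzymes, at 0.16. Por had 563, 526 and 617 CPM in knockout replicates 1 to 3 and 123, 223 and 208 CPM in WT replicates 1 to 3. Pcsk4, a proprotein convertase, followed at 0.24 and Fkbp5, a cochaperone of steroid receptors, at 0.29. The genes nearest to Cyp26a1 were Dnase1, Layn and P2ry1, at 0.20, 0.21 and 0.22, the first pair at under 2 CPM in every library. The measure contains the difference between genotypes and so favours genes that share it.

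Other genes of retinoid handling were described by the same rule. Of 91 such genes in the files, 79 were tested, of which edgeR called 0 higher and 1 lower in knockout livers, with 14 higher and 8 lower before adjustment (p under 0.05) and 5 higher and 6 lower by DESeq2. Over all genes edgeR called 0.128% higher and 0.0878% lower, and before adjustment 8.10% were higher and 7.35% lower. In either direction, DESeq2 called 3.64% of all the genes it tested. The lists were chosen with earlier results of these data known, so these counts are a description. The median log2 fold change of the 79 was 0.03, against 0.001 for all genes tested.

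In retinyl ester formation and hydrolysis, Lpl was the 1 of 17 tested genes that edgeR called, with 6 higher and 3 lower before adjustment (p under 0.05) and 3 higher and 3 lower by DESeq2. Lpl, the lipase that releases fatty acids from lipoproteins and can hydrolyse retinyl esters, fell to 22.1, 21.0 and 23.7 CPM in knockout replicates 1 to 3, against 44.3, 42.7 and 39.5 CPM in WT replicates 1 to 3. The groups were far apart, with a log2 fold change of -0.92 ± 0.10 (SE, edgeR adjusted p = 0.0233). Lpl missed the threshold without knockout replicate 2 (0.0723), WT replicate 1 (0.0656) or WT replicate 2 (0.0837). It also missed it with the replicate number as a block (0.0585) and with the clock score (0.231). Macrophages also express Lpl, and the summed level of 15 Kupffer cell and macrophage markers was lower too, at 645 to 912 CPM in knockout and 968 to 1049 CPM in WT livers. Of these 15 markers 13 had negative log2 fold changes and none was at 0, their most abundant being Slc40a1, the iron exporter, at 272 CPM in knockout and 240 CPM in WT livers, and Clec4f, a Kupffer cell lectin, at 121 and 177 CPM in the same order. EdgeR called 0 of the 15, with 0 higher and 13 lower before adjustment (p under 0.05) and 11 lower by DESeq2. Their part in the Lpl difference was not tested.

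Other genes of ester turnover were not past the threshold in edgeR, and 5 of them were past it in DESeq2. Ces1d, a carboxylesterase with retinyl ester hydrolase activity, averaged 667 ± 51 CPM in knockout and 490 ± 23 CPM in WT livers (edgeR adjusted p = 0.114; 0.00276 by DESeq2). Lipe, hormone-sensitive lipase, stood at 23.5 ± 5.9 and 14.6 ± 0.7 CPM (0.122; 0.0143 by DESeq2), and Abhd5, the co-activator of adipose triglyceride lipase, at 46.8 ± 4.6 and 62.5 ± 5.2 CPM (0.131; 0.0469 by DESeq2), knockout first in each. The remaining pair, named after their values were seen, were Dgat2 and Ces1g. Dgat2, an acyltransferase of triglyceride synthesis, averaged 845 ± 67 CPM in knockout and 595 ± 93 CPM in WT livers (edgeR adjusted p = 0.145; 0.0174 by DESeq2). Ces1g, a carboxylesterase, averaged 145 ± 30 CPM in knockout and 222 ± 34 CPM in WT livers (edgeR adjusted p = 0.145; 0.0194 by DESeq2). Carboxylesterases of the Ces1 cluster are near copies that can share reads.

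In transport and uptake, edgeR called 0 of 7 tested genes, with 1 higher and 2 lower before adjustment (p under 0.05) and 1 lower by DESeq2. Ttr, the partner of RBP4 in plasma, averaged 5865 ± 275 CPM in knockout and 5926 ± 520 CPM in WT livers (SD, n = 3 each). Fabp5, which can carry retinoic acid, stood at 11.9 ± 2.6 CPM in knockout and 23.9 ± 5.9 CPM in WT livers (edgeR adjusted p = 0.0933; 0.000857 by DESeq2).

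For the dehydrogenases and reductases that interconvert retinol and retinal, edgeR called 0 of 20 tested genes, with 3 higher and 1 lower before adjustment (p under 0.05) and 1 higher and 1 lower by DESeq2. Rdh9, a retinol dehydrogenase of a family of near copies, had 149, 173 and 122 CPM in knockout replicates 1 to 3 and 79.7, 87.0 and 97.5 CPM in WT replicates 1 to 3 (edgeR adjusted p = 0.0690; 0.000256 by DESeq2). Its groups did not overlap. Dhrs9 averaged 0.927 CPM in knockout and 3.09 CPM in WT livers (edgeR adjusted p = 0.124, and 0.00514 by DESeq2). Adh7 averaged 22.6 and 17.7 CPM in the same order (edgeR adjusted p = 0.181). Dhrs9 was lower alongside the macrophage markers above, and their part in it was not tested. Rdh10, the enzyme that makes retinal from retinol in embryos, stood at 27.2 ± 5.1 CPM in knockout and 27.3 ± 2.9 CPM in WT livers; it was named after its values were seen.

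Of 7 tested genes of retinoic acid synthesis and oxidation outside the 9, edgeR called 0, with 1 higher and 1 lower before adjustment (p under 0.05) and 0 by DESeq2. These were Ugt1a1, a glucuronosyltransferase, at 232 ± 20 CPM in knockout and 189 ± 19 CPM in WT livers, and Aldh1a7. Cyp2s1 was under 1 CPM in either group on average.

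Among the receptors and cofactors, edgeR called 0 of 17 tested genes, with 3 higher and 0 lower before adjustment (p under 0.05) and 1 higher by DESeq2. Rxra, the main partner of retinoic acid receptors in hepatocytes and named after its values were seen, averaged 709 ± 66 CPM in knockout and 685 ± 45 CPM in WT livers. Med1, a Mediator subunit that binds nuclear receptors, stood at 43.5 ± 1.9 and 33.0 ± 2.6 CPM (edgeR adjusted p = 0.121; 0.0411 by DESeq2), and Nr2f2 at 48.5 ± 2.8 and 38.9 ± 2.6 CPM (0.175), in the same order.

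Genes known to be induced by retinoic acid outside the 9 did not move as a group. Of 15 tested, 8 had positive and 7 negative log2 fold changes, at a median of 0.01, and edgeR called 0, with 0 higher and 2 lower before adjustment (p under 0.05) and 1 lower by DESeq2. Tgm2, a transglutaminase that was lowest in p, averaged 113 ± 10 CPM in knockout and 159 ± 20 CPM in WT livers (edgeR adjusted p = 0.114; 0.0125 by DESeq2). Dhrs3, a retinal reductase induced by retinoic acid and named after its values were seen, stood at 120 ± 29 CPM in knockout and 134 ± 27 CPM in WT livers. Pdk4 averaged 3.69 and 5.40 CPM in the same order (0.373). The 7 genes not tested, among them Stra8 and Cdx1, averaged 0 to 0.322 CPM in knockout and 0 to 0.202 CPM in WT livers.

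The last list held the xenobiotic receptor CAR with its targets and partners, among them Por, which supplies electrons to microsomal P450 enzymes such as CYP26. Por and Nr1i3, the gene for CAR, were the 2 of 12 tested genes that edgeR called higher and 0 were called lower, with 4 higher and 2 lower before adjustment (p under 0.05) and 3 higher and 1 lower by DESeq2. Both were already known to be called when the list was written, so this count is no independent evidence. Por had a log2 fold change of 1.62 ± 0.21 (SE, edgeR adjusted p = 0.0348). It was not called without knockout replicates 1, 2 or 3 or WT replicate 2 (0.0642, 0.0740, 0.0604 and 0.0837). Nor was it called with the replicate number as a block (0.0585) or with the clock score (0.215). Nr1i3 had 111, 147 and 131 CPM in knockout replicates 1 to 3 and 50.7, 48.4 and 55.9 CPM in WT replicates 1 to 3 (edgeR adjusted p = 0.0119). It was not called without WT replicate 2 (0.0671), with the replicate number as a block (0.0539) or with the clock score (0.215). Cyp2b10, the classical CAR target and named after its values were seen, was low, at 1.28 ± 0.61 CPM in knockout and 0.755 ± 0.496 CPM in WT livers. Sult1d1, a sulfotransferase, stood at 198 ± 76 CPM and 101 ± 15 CPM (edgeR adjusted p = 0.134; 0.00299 by DESeq2), Cyp2c55 at 2.94 and 5.65 CPM (0.121; 0.0174 by DESeq2) and Gstm3 at 33.8 and 51.9 CPM (0.195; 0.0656 by DESeq2), in the same order.

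**Figure D5:**
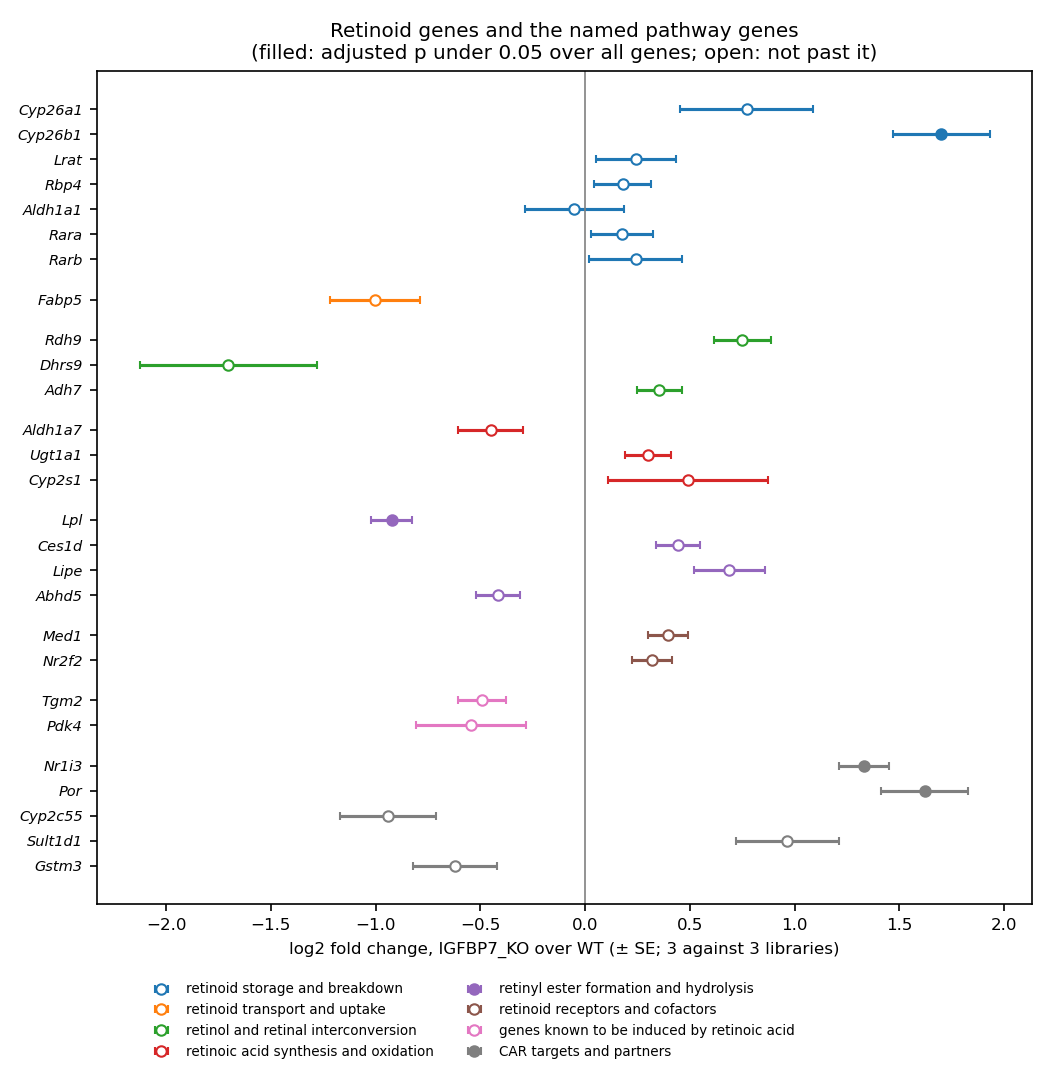
Log2 fold change, IGFBP7_KO over WT, with standard errors (horizontal axis) of the 7 tested retinoid storage and breakdown genes and named genes of each pathway list (rows, coloured by list; 3 against 3 libraries); filled points have an adjusted p under 0.05 over all genes. Cyp26b1, Nr1i3 and Por are filled above 0 and Lpl below 0, and the other genes are open.

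Markers of further cell types were read from the same fit. Pericentral hepatocytes are the zone where Aldh1a1 and Cyp26a1 are known to be expressed. Their markers summed to 12070 to 17077 CPM in knockout and 10392 to 11349 CPM in WT livers, without overlap. Cyp2e1, an ethanol-oxidising P450, averaged 9249 CPM in knockout and 6264 CPM in WT livers. It made up most of the sum in either group, so the sum largely follows this gene. Glul, glutamine synthetase, came next at 1125 and 1055 CPM in the same order. EdgeR called 0 of the 16, with 5 higher and 1 lower before adjustment (p under 0.05) and 3 higher by DESeq2, none of them at 0. Their median log2 fold change was 0.10, and it was -0.09 without knockout replicate 2, 0.004 without WT replicate 3 and 0.20 without WT replicate 1. Their part in the Cyp26a1 difference was not tested. Liver endothelial markers overlapped, at 788 to 900 CPM in knockout and 806 to 878 CPM in WT livers, led by Ptprb and Stab2; edgeR called 0 of 18, with 1 higher and 2 lower before adjustment (p under 0.05) and 0 by DESeq2. Mesothelial markers summed to 17.9 to 21.4 CPM in knockout and 19.4 to 23.4 CPM in WT livers, and Podxl, also expressed by endothelium, made up most of this at 12.1 CPM in knockout and 15.9 CPM in WT livers, while Gpm6a stood at 2.69 and 1.79 CPM in the same order. Of 9 mesothelial genes 5 were tested and edgeR called 0, with 1 higher and 1 lower before adjustment (p under 0.05) and 0 by DESeq2. The median log2 fold change of the 5 was 0.60, opposite in sign to that of Podxl, and 0.15 without WT replicate 1 or WT replicate 2 and 0.30 without knockout replicate 2. Their part in the few Aldh1a2 counts was not tested.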

How the data were processed

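RNA was sequenced from 3 IGFBP7_KO and 3 WT liver samples. Per the labels' protocols, total RNA went into Illumina TruSeq RNA libraries. Each deposited file lists whole read counts by gene symbol, which the authors made without normalization. Per the submitters' processing notes, CASAVA 1.8.2, HTSeq and TopHat2 2.0.8b were used, and hg19 and mm9 are named as builds without their roles. No source used here names the annotation or the strand setting. The last 5 rows of each file name no gene and were left out; reads in no gene were 9.65% to 12.5% and ambiguous reads 0.594% to 0.662% of uniquely placed reads.

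Groups follow the sample titles. Counts were tested in R 4.3.3 with edgeR 4.0.16 (filterByExpr with a minimum count of 10, TMM, quasi-likelihood F test, genotype as the only term), with 2-sided p-values adjusted by Benjamini-Hochberg over 12522 genes. Standard errors come from the F statistic. Alternatives were median-ratio or no scaling factors, other filters, DESeq2 1.42.0, limma-voom (limma 3.58.1), the replicate number as a block, a clock score and each library left out. Pairs of replicates differed by more than sampling noise (chi-square per degree of freedom 23.1 to 42.9). The test was first checked on simulated counts. It called 20.3% of 59 changes of 1.5-fold, 79.4% of 68 of 2-fold and 100% of 70 of 4-fold there, and also 14 unchanged genes. The 4-fold calls alone outnumbered the 27 genes called in the real data. A Benjamini-Hochberg threshold eases as more genes are called, so these shares may be too high for the real data. Changes near 1.5-fold were thus mostly missed. A limit for a count of 0 is 3 counts and covers counting error only. Exon lengths come from GENCODE M21 and promoters from RefSeq (GRCm38.p6), so no coordinates of the files' build are given.

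The 9 genes and the lists were chosen with earlier results of these data known. Named were the 9 genes, Igfbp7, of each pathway list up to 6 called genes and the 3 next by p, of each marker list the 2 most abundant, and the 3 genes most like Cyp26b1 and Cyp26a1. Lists of cholangiocyte, lymphocyte and red cell markers are given in the closing section. Some genes that this rule names are not reported here, though the counts over lists include them.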

Additional observations from a re-analysis of the deposited data

How the results depend on the processing

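The log2 fold changes of Cyp26a1, Cyp26b1, Lrat, Rbp4, Rara and Rarb were positive under every alternative run. The alternatives in scaling, filter and test that kept all libraries, without block or covariate, called Cyp26b1 and no other of the 9 genes. Calls over all genes, 27 with edgeR, numbered 133 with no filter on low counts, 438 with DESeq2, 1 with the replicate block and 1 with the clock score; leaving out a library gave 3 to 36. For the 9 genes the 1 call became 0 with the replicate block and 0 with the clock score, and 0 to 1 without a library. Pathway genes, CAR genes included, had 3 calls, against 5 with no filter, 15 with DESeq2, 0 with the replicate block, 0 with the clock score and 0 to 3 without a library. Aldh1a1 turned to a log2 fold change of 0.26 with the clock score and ranged from -0.30 to 0.16 without a library, and Pdk4 turned to 0.051 with the clock score; the cause was not tested. Same-numbered libraries did not deviate together (correlations across genes of -0.08, -0.10 and -0.04). These values give no sign of a pairing by number, but they cannot exclude one. With the numbers as a block Cyp26b1 had a log2 fold change of 1.74 and an edgeR adjusted p of 0.0585. Depth limits Aldh1a2, at 1 to 6 counts, and Crabp2, at 0.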

Other observations

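Cholangiocyte markers summed to 233 to 302 CPM in knockout and 358 to 412 CPM in WT livers. The keratin Krt18 led, at 111 CPM in knockout and 159 CPM in WT livers. The keratin Krt8 followed, at 80.2 and 105 CPM in the same order. Hepatocytes also express both keratins, so this sum is not one of cholangiocytes alone. EdgeR called 0 of 9 tested, with 0 higher and 3 lower before adjustment (p under 0.05) and 1 lower by DESeq2. T, NK and B cell markers summed to 5.25 to 7.64 CPM in knockout and 10.1 to 12.4 CPM in WT livers, led by Cd4, at 2.25 and 2.80 CPM, and Cd79b, at 1.04 and 1.59 CPM, knockout livers first in each. EdgeR called 0 of 8 tested, with 0 higher and 3 lower before adjustment (p under 0.05) and 0 by DESeq2. The filter kept 8 of 13 of these genes, and a gene scarce in both groups passes it only through the higher one. Of 7 red blood cell genes, Alas2 was the 1 tested, at 176 ± 15 CPM in knockout and 211 ± 15 CPM in WT livers (SD, n = 3 each, edgeR adjusted p = 0.252). The globin genes Hba-a1, Hba-a2, Hbb-b1 and Hbb-b2 had a count of 0 in every library. Alignments that were not unique were counted outside the genes, at 1.49 to 2.65 per gene count. Whether globin reads fell there was not tested, so the 0 does not show that globin RNA was absent.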
